A study of Mus musculus with 12 samples.

Results

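The insulin-like growth factor (IGF) axis genes followed here are Igf2 and Igf1, Igf1r and Igf2r, Igfbp2, Igfbp3, Igfbp4 and Igfbp5, and Irs1 and Irs2. Every probe annotated with 1 of these 10 symbols was taken, which gave 20 of the 45281 probes on the arrays and 10 of the 19057 named genes. Probes were chosen by symbol, but the list of symbols was drawn up with earlier results of these arrays known, and which differences guided it is not recorded. The levels, differences and adjusted p-values below therefore describe these genes within the fit over all probes, and they are no independent evidence that the axis responds. The arrays measured RNA of the mouse eye primordium at E10.5 (embryonic day), on a mixed C57BL6 and FVB background. The 4 groups were distal optic vesicle from wild-type (WT) embryos, distal optic vesicle from knockout (KO) embryos, which lack Bmp4 in their optic vesicle, and the surface ectoderm of the same 2 genotypes, with 3 arrays each. The tissue was cut out by laser from eosin-stained frozen sections of 10 µm, and 15 ng of RNA was amplified for each array. The driver of the deletion and the deleted stretch of Bmp4 are not given in the sources used here. Per the labels, 3 embryos of each genotype were used and RNA was pooled. The 3 arrays of a group may thus be separate embryos or repeats of a pool, in which case the p-values cover technical spread alone.

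IGF ligands are secreted growth factors. Igf1 and Igf2 act mainly through the tyrosine kinase receptor encoded by Igf1r, which passes the signal to the docking proteins Irs1 and Irs2 and from there to PI3 kinase and AKT. Igf2r takes up Igf2 for breakdown in lysosomes, and the secreted binding proteins hold the ligands in the extracellular space and set how much reaches the receptor. In the frog Xenopus, raised IGF signalling in the anterior neural plate promotes eye formation. BMP signals, which Bmp4 starts, act through Smad proteins that bind DNA.

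The promoters of Igfbp5, Irs1, Igfbp4 and Igf1 are shown as examples. Igfbp5 and Irs1 passed as higher in KO in both tissues, while Igfbp4 and Igf1 passed as higher in the ectoderm and did not pass in the vesicle. Igf2 also passed as higher in both tissues and Igfbp2 in the ectoderm alone, and their promoters are not shown. Each window runs from 250 bases before to 50 bases after a RefSeq transcript start (build GRCm38.p6) and is written from 5′ to 3′ on the gene's own strand, with the letters of a motif that was searched for in capitals.
Igfbp5, chr1:72874816-72875115, minus strand: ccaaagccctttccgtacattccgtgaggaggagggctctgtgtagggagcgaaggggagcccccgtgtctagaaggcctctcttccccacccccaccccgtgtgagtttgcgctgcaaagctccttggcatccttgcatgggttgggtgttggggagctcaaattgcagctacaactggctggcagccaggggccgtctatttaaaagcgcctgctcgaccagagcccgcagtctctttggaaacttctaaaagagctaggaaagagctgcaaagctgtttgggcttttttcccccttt
Irs1, chr1:82291390-82291689, minus strand: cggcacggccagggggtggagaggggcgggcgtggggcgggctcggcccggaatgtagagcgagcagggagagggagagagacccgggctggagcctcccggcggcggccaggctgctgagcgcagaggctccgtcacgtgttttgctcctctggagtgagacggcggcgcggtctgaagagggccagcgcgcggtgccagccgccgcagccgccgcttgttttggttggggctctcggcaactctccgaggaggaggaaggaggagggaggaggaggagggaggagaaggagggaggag
Igfbp4, chr11:99040994-99041293, plus strand: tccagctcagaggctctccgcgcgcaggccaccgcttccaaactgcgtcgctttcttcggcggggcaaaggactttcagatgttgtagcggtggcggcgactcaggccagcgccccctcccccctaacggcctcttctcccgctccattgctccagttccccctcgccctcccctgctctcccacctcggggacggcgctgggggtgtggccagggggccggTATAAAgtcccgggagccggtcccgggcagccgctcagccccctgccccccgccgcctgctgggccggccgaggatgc
Igf1, chr10:87860861-87861160, plus strand: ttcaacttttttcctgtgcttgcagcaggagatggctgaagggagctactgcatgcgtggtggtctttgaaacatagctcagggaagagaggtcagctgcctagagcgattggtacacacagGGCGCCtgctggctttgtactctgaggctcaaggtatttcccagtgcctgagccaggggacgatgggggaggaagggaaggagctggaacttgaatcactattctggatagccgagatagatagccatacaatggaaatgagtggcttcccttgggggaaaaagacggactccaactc

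All 10 genes had at least 1 RefSeq promoter, 14 in all. Both strands were searched for the GC-rich Smad motif GGCGCC, the Smad palindrome GTCTAGAC, the forkhead core TGTTTAC and the TATA box TATAAA. The GC-rich motif was present in 2 of the 14, those of Igf1 (starting at position -128 from the transcript start) and Irs2 (-105), and in 11.9% of all 32851 promoters. The TATA box letters were present only in that of Igfbp4 among the 14, at position -28, and in 13.6% of all promoters. The palindrome (0.213% of all promoters) and the forkhead core (3.65%) were in none of the 14 windows, which says only that these letters are not there. The promoters of Igfbp5 and Igf1 had a GC content of 56.3% and 52.3%, near the median of 52.7% over all promoters, while those of Irs1 and Igfbp4 both had 71.3%.

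Per array, 45.0% to 46.7% of probes were detected, and replicates correlated across probes at 0.919 to 0.956. A value of an IGF axis probe rested on 22 to 74 beads, with a bead standard error of 1.7% to 5.79% of the intensity. All 20 probes passed the filter (detection p below 0.05 on at least 3 arrays), and 16 were detected on all 12 arrays. Bmp4, the deleted gene, fell in the KO vesicle from 8.26 ± 0.04 to 4.59 ± 0.51 by its brighter probe (SD, n = 3, normalised log2 intensity; log2 difference -3.67, adjusted p = 0.000152), with 1 of 3 KO arrays above background. Its second probe differed by -1.12 in the vesicle (adjusted p = 0.48). In the ectoderm the brighter probe differed by -1.10 (adjusted p = 0.181). The second was above background on 0 of 3 WT ectoderm arrays and read 7.11, 4.78 and 4.58 in KO, at least 1.66-fold higher (adjusted p = 0.254), with array 1 well above the other KO arrays. Whether the probes lie in the deleted part is not known here.

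KO was first set against WT within each tissue, which asks what the loss of Bmp4 in the vesicle does there and in the overlying prospective lens. These comparisons share no arrays, though 1 estimate of the spread serves both. In the vesicle 5 of the 20 probes, of Igf2, Igfbp5 and Irs1, passed a Benjamini-Hochberg adjusted p of 0.05 as higher and 0 as lower, where 0.681% and 0.488% of all 24978 tested probes passed. At an unadjusted p under 0.05 by limma, 2 probes were lower there, both of Igfbp4. In the ectoderm 9 probes of 6 genes (Igf2, Igf1, Igfbp2, Igfbp4, Igfbp5, Irs1) passed as higher and 2 probes, of Igf1r and Igf2r, as lower, where 1.52% and 1.73% of all probes passed. That Igf1r probe met the filter only through WT ectoderm, where it was brightest. The median log2 difference over the 20 probes was 0.37 in the vesicle and 0.50 in the ectoderm, against -0.01 and -0.00093 over all probes. Because the genes were chosen with results known, nothing is read from these shares. Probes of 1 gene share its RNA and are not separate observations of the condition. In these bulk samples, fewer cells of a type and less RNA per cell cannot be told apart.

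**Figure D1:**
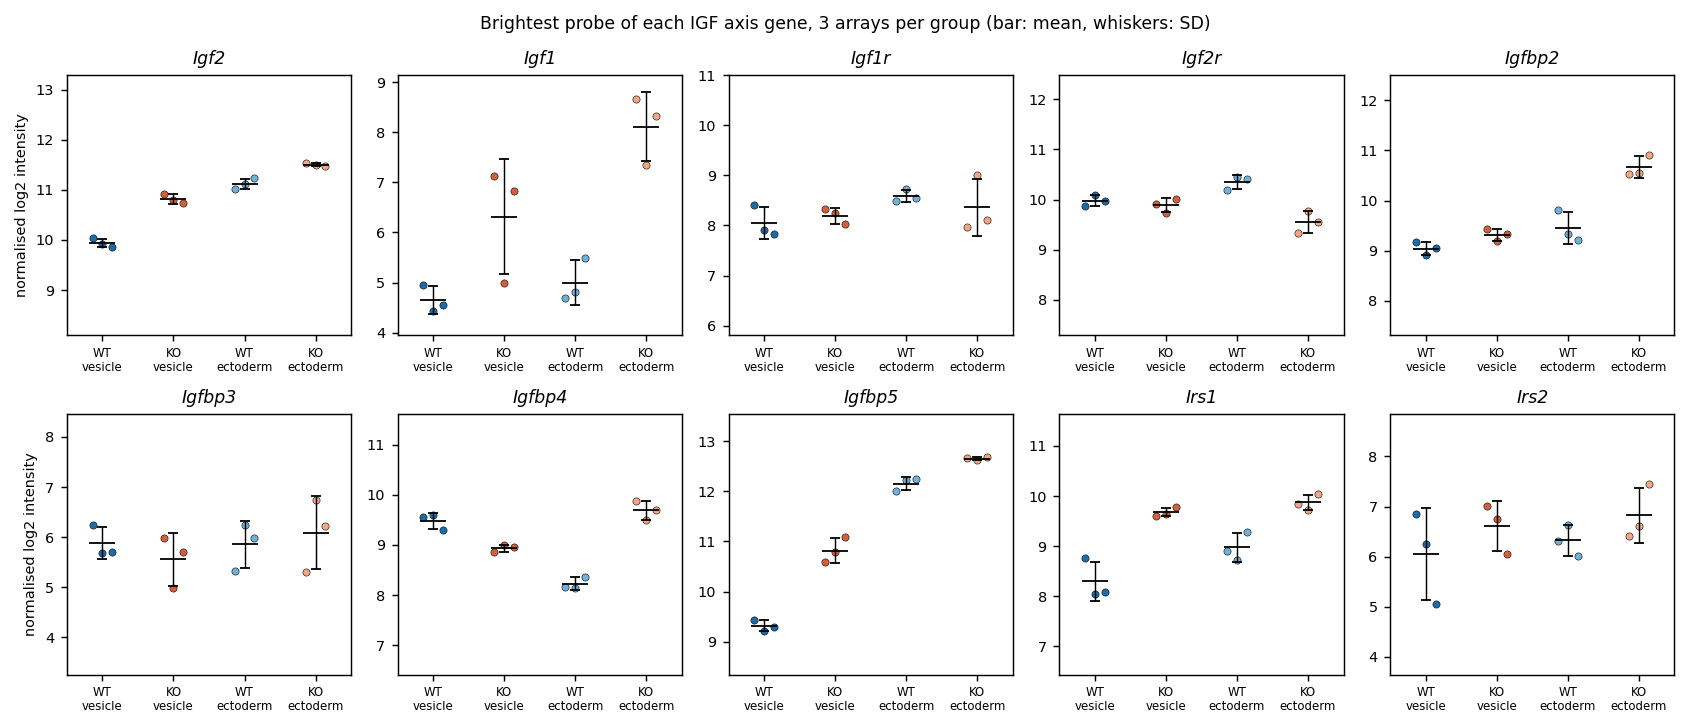
Normalised log2 intensity (vertical axis, the same span in each panel) of the brightest probe of each IGF axis gene in the 4 groups; points are arrays, bars group means and whiskers SD (n = 3). Igf2 and Igfbp5 stepped up from WT vesicle to KO vesicle, WT ectoderm and KO ectoderm without overlap, whereas Igfbp4 was lowest in WT ectoderm and Igfbp3 and Irs2 overlapped between groups.

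Of the ligands, Igf2, an imprinted fetal growth factor, lies on chromosome 7 (142650768 to 142666816). Its single probe read 10.04, 9.92 and 9.87 in WT vesicle and 10.92, 10.80 and 10.73 in KO vesicle. It read 11.01, 11.11 and 11.23 in WT ectoderm and 11.53, 11.50 and 11.48 in KO ectoderm. None of the 4 groups overlapped, and their order ran from WT vesicle over KO vesicle and WT ectoderm to KO ectoderm. Igf2 rose by 0.87 in the vesicle (95% interval 0.66 to 1.08, 1.83-fold, adjusted p = 0.000196, 0.76 and 0.93 within the 2 slides). In the ectoderm it rose by 0.39 (0.18 to 0.60, adjusted p = 0.0455, 0.45 and 0.27 within slides). The ectoderm call was lost on leaving out any 1 ectoderm array other than WT array 3, with values of 0.34 to 0.45 and adjusted p of 0.0471 to 0.153. That call was also lost with the authors' processed values, without a detection filter and with array weights. It was lost too with replicate number as a block and with only the ectoderm arrays in the fit. Values within slides rest on few arrays, here and below. In the vesicle the slide 1 value sets 1 KO array against 1 WT array, and in the ectoderm the slide 2 value does.

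Igf1, the postnatal growth hormone mediator that embryos also make locally (chromosome 10, 87858265 to 87937047), was near background in both WT tissues. Its brighter probe read 4.96, 4.43 and 4.56 in WT vesicle, where 1 of 3 arrays was above background, and 7.13, 5.00 and 6.82 in KO vesicle. It read 4.69, 4.81 and 5.50 in WT ectoderm, where 2 of 3 arrays were above background, and 8.67, 7.34 and 8.33 in KO ectoderm. KO lay above WT without overlap in both tissues, and KO vesicle array 2 stayed within 0.1 of the highest WT vesicle array. In the ectoderm Igf1 rose by 3.11 (1.96 to 4.26, 8.64-fold, adjusted p = 0.00429), with 3.75 and 1.84 within slides. The difference ran over the other processing choices from 1.68 without background correction to 3.89 with the authors' processed values, and the call held in both. In the vesicle the difference was 1.66 (0.51 to 2.81, adjusted p = 0.224). Without KO vesicle array 2 the vesicle difference was 2.32 with an adjusted p of 0.0439, the lowest over 18 alternatives, whose p ran up to 1. The dimmer Igf1 probe was above background on 1 WT vesicle array, 1 KO vesicle array, 0 WT ectoderm arrays and all 3 KO ectoderm arrays. Without the KO ectoderm arrays, its brightest group, it would not have met the filter. Its comparisons with that group are thus description and no test. This probe was at least 2.18-fold higher in KO than WT ectoderm (means 5.88 and 4.49, adjusted p = 0.056). Such lower bounds set the bright group's mean against the higher of each dim array's lowest above-background signal and the dim probe's own value.

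Of the receptor probes, 2 passed between KO and WT, both in the ectoderm. Igf1r (chromosome 7, 67952257 to 68233668) encodes the signalling receptor and has 4 probes. Its brightest probe read 8.41, 7.90 and 7.82 in WT vesicle, 8.33, 8.24 and 8.02 in KO vesicle, 8.48, 8.72 and 8.55 in WT ectoderm and 7.96, 9.0 and 8.11 in KO ectoderm. The genotypes overlapped in both tissues, with differences of 0.15 (-0.43 to 0.73) in the vesicle and -0.22 (-0.81 to 0.36) in the ectoderm. The dimmest Igf1r probe behaved otherwise. It was above background on 0, 2, 3 and 0 of 3 arrays in WT vesicle, KO vesicle, WT ectoderm and KO ectoderm. Without the WT ectoderm arrays, its brightest group, it would not have met the filter. Its comparisons with that group are thus description and no test. The probe read 5.67, 5.90 and 6.44 in WT ectoderm and 4.71, 4.62 and 4.33 in KO ectoderm, where it was at least 2.37-fold lower (adjusted p = 0.00945). In the vesicle it read 4.70, 4.51 and 4.63 in WT and 4.52, 4.78 and 5.24 in KO. With the authors' processed values, or with only the ectoderm arrays in the fit, this call was lost, and over all alternatives the difference ran from -3.46 to -0.53. The remaining 2 Igf1r probes were detected on every array and passed in no comparison, so the Igf1r probes disagree.

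Igf2r (chromosome 17, 12682406 to 12769706), whose product clears Igf2, fell in the KO ectoderm by its brighter probe. That probe read 10.19, 10.46 and 10.41 in WT ectoderm and 9.33, 9.77 and 9.55 in KO ectoderm, with no overlap. The log2 difference was -0.80 (-1.11 to -0.49, adjusted p = 0.00603), and -0.88 and -0.64 within slides, and the call was lost with only the ectoderm arrays in the fit. In the vesicle it read 9.87, 10.09 and 9.98 in WT and 9.92, 9.73 and 10.01 in KO, a difference of -0.09 (-0.40 to 0.22). The dimmer Igf2r probe did not pass in either tissue (ectoderm -0.13, interval -1.15 to 0.89). In the KO ectoderm the readings of Igf2 and of the brighter Igf2r probe thus passed in opposite directions.

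Among the binding proteins, Igfbp5, a binding protein that also attaches to extracellular matrix (chromosome 1, 72858065 to 72874865), rose in the KO vesicle by all 3 of its probes. The brightest probe read 9.43, 9.21 and 9.30 in WT vesicle, 10.59, 10.78 and 11.08 in KO vesicle, 12.01, 12.22 and 12.24 in WT ectoderm and 12.66, 12.62 and 12.68 in KO ectoderm. As with Igf2, no 2 groups overlapped, and each step in the order was upward. The vesicle difference was 1.498 (1.25 to 1.75, 2.83-fold, adjusted p = 8.36e-06), and 1.34 and 1.58 within slides. The second probe read 7.90, 8.55 and 8.85 in WT vesicle, 10.23, 10.31 and 10.27 in KO vesicle, 11.52, 11.44 and 11.54 in WT ectoderm and 12.19, 12.09 and 11.88 in KO ectoderm. Its vesicle difference was 1.84 (adjusted p = 6.81e-05). The dimmest Igfbp5 probe read 6.05, 6.69 and 5.92 in WT vesicle, 8.63, 8.42 and 8.57 in KO vesicle, 9.81, 9.89 and 10.09 in WT ectoderm and 11.02, 10.87 and 10.90 in KO ectoderm. Its vesicle difference was 2.32 (4.99-fold, adjusted p = 2.35e-05), so the fold was greater the dimmer the probe.

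In the ectoderm the Igfbp5 differences were smaller. They were 0.50 (adjusted p = 0.0326), 0.55 (adjusted p = 0.129) and 1.00 (adjusted p = 0.0136) for the same order of probes. The first of these calls was lost on leaving out any 1 of the 6 ectoderm arrays (0.42 to 0.54, adjusted p 0.0505 to 0.129). The last was lost only without WT ectoderm array 1 (adjusted p = 0.057, range over the 6 arrays 0.0252 to 0.057).

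Igfbp4, whose product holds IGFs away from the receptor until it is cleaved (chromosome 11, 99040005 to 99052655), rose in the KO ectoderm. Its brighter probe read 8.16, 8.15 and 8.37 in WT ectoderm and 9.88, 9.50 and 9.69 in KO ectoderm, a difference of 1.46 (1.10 to 1.82, 2.75-fold, adjusted p = 0.000156, 1.63 and 1.12 within slides). In the vesicle it read 9.55, 9.60 and 9.30 in WT and 8.86, 9.0 and 8.95 in KO. The KO values were the lower ones there, without overlap, by -0.55 (-0.90 to -0.19, adjusted p = 0.186). The dimmer probe read 8.38, 8.0 and 8.17 in WT vesicle, 6.96, 6.75 and 7.0 in KO vesicle, 5.23, 6.03 and 5.91 in WT ectoderm and 8.24, 6.71 and 7.05 in KO ectoderm. It differed by -1.28 in the vesicle (adjusted p = 0.185) and by 1.61 in the ectoderm (adjusted p = 0.036). Of the 6 fits with 1 ectoderm array left out, only that without KO array 2 kept the ectoderm call (values 1.15 to 1.92, adjusted p 0.0201 to 0.125).

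Igfbp2, a binding protein that is abundant in embryonic epithelia (chromosome 1, 72824480 to 72852474), rose in the KO ectoderm. Its brighter probe read 9.81, 9.34 and 9.21 in WT ectoderm and 10.54, 10.56 and 10.92 in KO ectoderm, a difference of 1.22 (0.84 to 1.60, 2.33-fold, adjusted p = 0.00107). In the vesicle it read 9.18, 8.91 and 9.05 in WT and 9.43, 9.20 and 9.33 in KO, a difference of 0.27 (-0.10 to 0.65, adjusted p = 0.677). The groups did not overlap in either tissue, though the vesicle values were only 0.02 apart at their nearest. The dimmer probe read 4.92, 5.99 and 5.62 in WT vesicle, 7.46, 6.06 and 5.71 in KO vesicle, 5.27, 5.10 and 5.39 in WT ectoderm and 7.56, 6.55 and 8.55 in KO ectoderm. Its ectoderm difference was 2.30 (adjusted p = 0.0337), but of the 6 fits with 1 ectoderm array left out it passed only in that without KO array 2 (1.80 to 2.80, adjusted p 0.0149 to 0.118). Igfbp2 and Igfbp5 are neighbours on chromosome 1, with 5590 bases and 0 annotated genes between them.

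Igfbp3, the main carrier of IGFs in serum (chromosome 11, 7206086 to 7215498), passed in no comparison by either probe. Its brighter probe read 6.25, 5.68 and 5.71 in WT vesicle, 5.99, 4.98 and 5.70 in KO vesicle, 5.33, 6.24 and 5.99 in WT ectoderm and 5.31, 6.74 and 6.23 in KO ectoderm. All 4 groups overlapped. The interval of its KO minus WT difference ran from -1.28 to 0.64 in the vesicle and from -0.72 to 1.198 in the ectoderm.

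**Figure D2:**
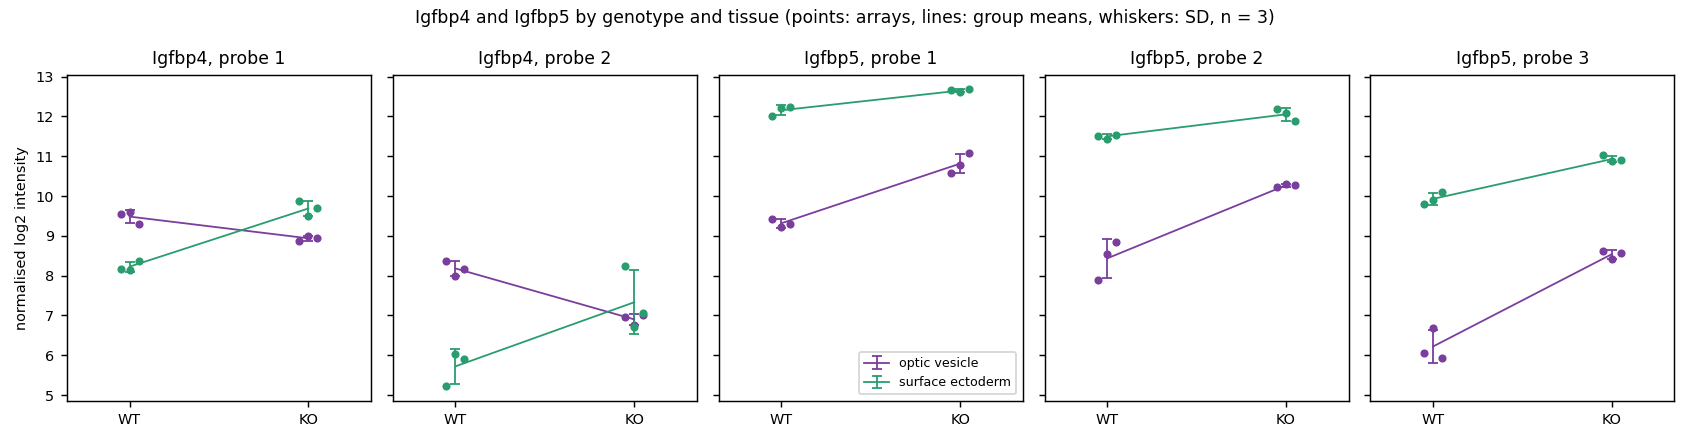
Normalised log2 intensity (vertical axis) of the 2 Igfbp4 and 3 Igfbp5 probes by genotype (horizontal axis), with points for arrays, lines joining group means and whiskers for SD (n = 3). The Igfbp4 lines of vesicle and ectoderm cross, while all 3 Igfbp5 pairs run upward with a steeper line in the vesicle.

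Of the docking proteins, Irs1 (chromosome 1, 82233105 to 82291439) rose in both tissues. It read 8.76, 8.04 and 8.09 in WT vesicle, 9.61, 9.65 and 9.78 in KO vesicle, 8.91, 8.73 and 9.29 in WT ectoderm and 9.85, 9.73 and 10.04 in KO ectoderm. Each KO array was above every WT array of either tissue. The vesicle difference was 1.39 (0.94 to 1.83, 2.61-fold, adjusted p = 0.00276, 0.90 and 1.63 within slides). The ectoderm difference was 0.90 (0.45 to 1.34, 1.86-fold, adjusted p = 0.0305), and it fell to 0.44 within slide 2 from 1.13 within slide 1. The ectoderm call was lost without WT array 1 or 2 or KO array 1 or 3 (0.77 to 1.05, adjusted p 0.0217 to 0.106). It was also lost without a detection filter, with array weights and with only the ectoderm arrays in the fit.
Irs2 (chromosome 8, 10984681 to 11008929) passed in no comparison. It read 6.85, 6.25 and 5.05 in WT vesicle, 7.02, 6.75 and 6.06 in KO vesicle, 6.32, 6.64 and 6.02 in WT ectoderm and 6.41, 6.61 and 7.45 in KO ectoderm. All groups overlapped, and the intervals of its difference reached from -0.46 to 1.59 in the vesicle and from -0.52 to 1.52 in the ectoderm.

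**Figure D3:**
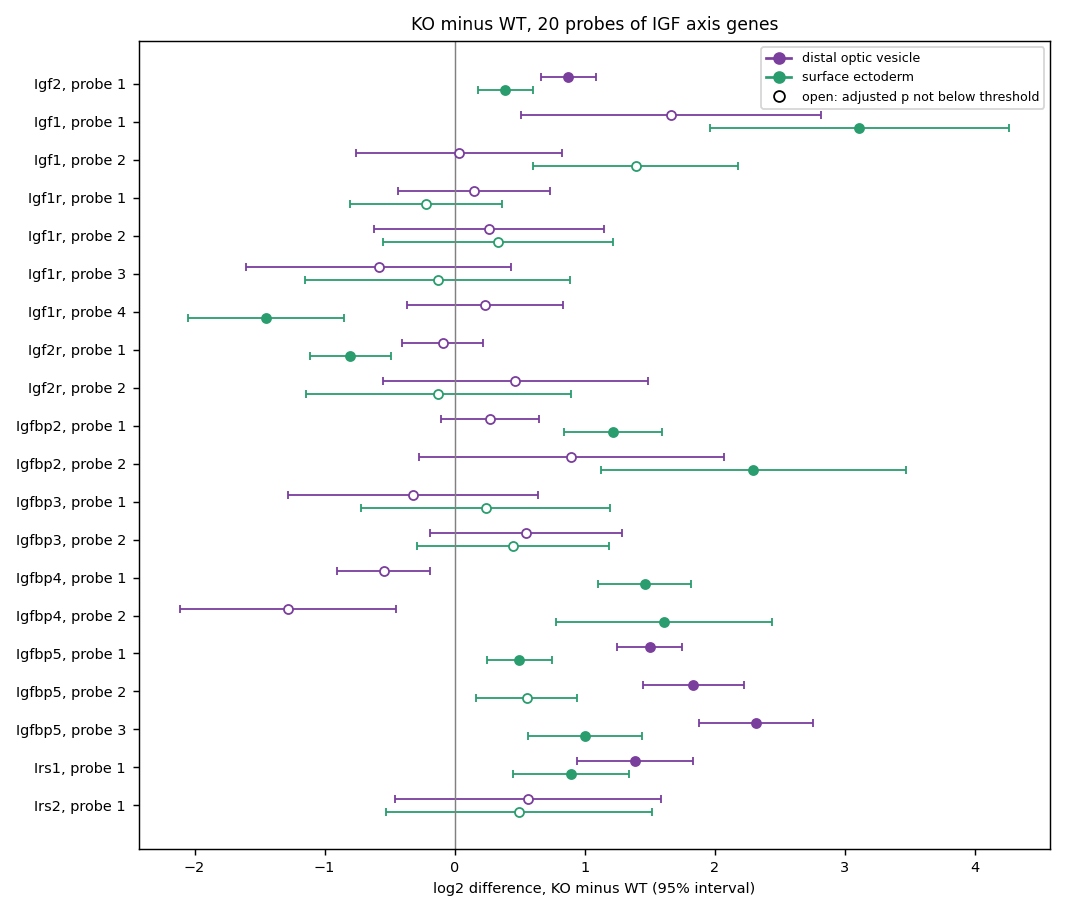
Log2 difference of KO minus WT (horizontal axis) with its 95% interval for each of the 20 probes, numbered by brightness within a gene, in distal optic vesicle and surface ectoderm; filled points passed an adjusted p of 0.05. In the vesicle 5 points are filled, all above 0, and in the ectoderm 9 are filled above 0 and 2 below.

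The effect of genotype in the vesicle was set against that in the ectoderm by an interaction term, which 0.516% of all probes passed as higher and 0.332% as lower. Of the 20 probes, 3 passed as higher, all of Igfbp5, and 2 as lower, both of Igfbp4. The Igfbp5 effect was greater in the vesicle by 1.00 (0.65 to 1.36, adjusted p = 0.00979), 1.28 (adjusted p = 0.0307) and 1.32 (adjusted p = 0.0492) on the log2 scale. The Igfbp4 effect differed by -2.01 (-2.51 to -1.50, adjusted p = 0.000891) and -2.89 (-4.07 to -1.71, adjusted p = 0.0234). The brightest Igfbp5 probe and the brighter Igfbp4 probe kept their call without each of the 12 arrays in turn. The second and dimmest Igfbp5 probes kept it in 3 and 1 of 12 such fits, and the dimmer Igfbp4 probe in 6 of 12. For Igf2 (0.48, adjusted p = 0.151), brighter Igf1 probe (-1.45, adjusted p = 0.516), brighter Igf2r probe (0.71, adjusted p = 0.158) and brighter Igfbp2 probe (-0.95, adjusted p = 0.108) the effects were not shown to differ between the tissues. The same held for Irs1 (0.49, interval -0.14 to 1.12) and for the dimmest Igf1r probe (1.68, adjusted p = 0.0674).

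The tissues were then compared within each genotype, with arrays that also enter the comparisons above. In WT, 2.53% of all probes were higher in vesicle than ectoderm and 3.22% lower, and in KO 2.43% and 2.73%. In WT, Igfbp4 was higher in the vesicle by 1.26 (0.90 to 1.61, adjusted p = 0.000258) and 2.46 (adjusted p = 0.00115). Igf2 was lower in the WT vesicle by -1.18 (-1.39 to -0.96, adjusted p = 3.07e-06). Igfbp5 was lower by -2.84 (7.15-fold, adjusted p = 4.71e-09), -3.06 and -3.71 from the brightest to the dimmest probe. The dimmest Igf1r probe was at least 2.37-fold lower in WT vesicle (adjusted p = 0.00738), again by that probe alone of the 4. That probe met the filter only through WT ectoderm, so this difference too is description.
In KO, Igfbp4 lay the other way. Its brighter probe was lower in the vesicle by -0.75 (-1.11 to -0.39, adjusted p = 0.0154), a call that was lost without KO vesicle array 1 or 3 or KO ectoderm array 1 (-0.84 to -0.65, adjusted p 0.0167 to 0.0626). The dimmer Igfbp4 probe differed by -0.43 (adjusted p = 0.652). Igfbp5 was lower in the KO vesicle by -1.84 (3.57-fold, adjusted p = 8.39e-07), -1.78 and -2.39, and Igf2 by -0.69 (adjusted p = 0.000575). Igfbp2 was lower by -1.35 (-1.73 to -0.98, adjusted p = 0.000267) by its brighter probe, which in WT differed by -0.41 (adjusted p = 0.231). Irs1 differed by -0.68 in WT (adjusted p = 0.0781) and by -0.19 in KO (-0.64 to 0.26).

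**Figure D4:**
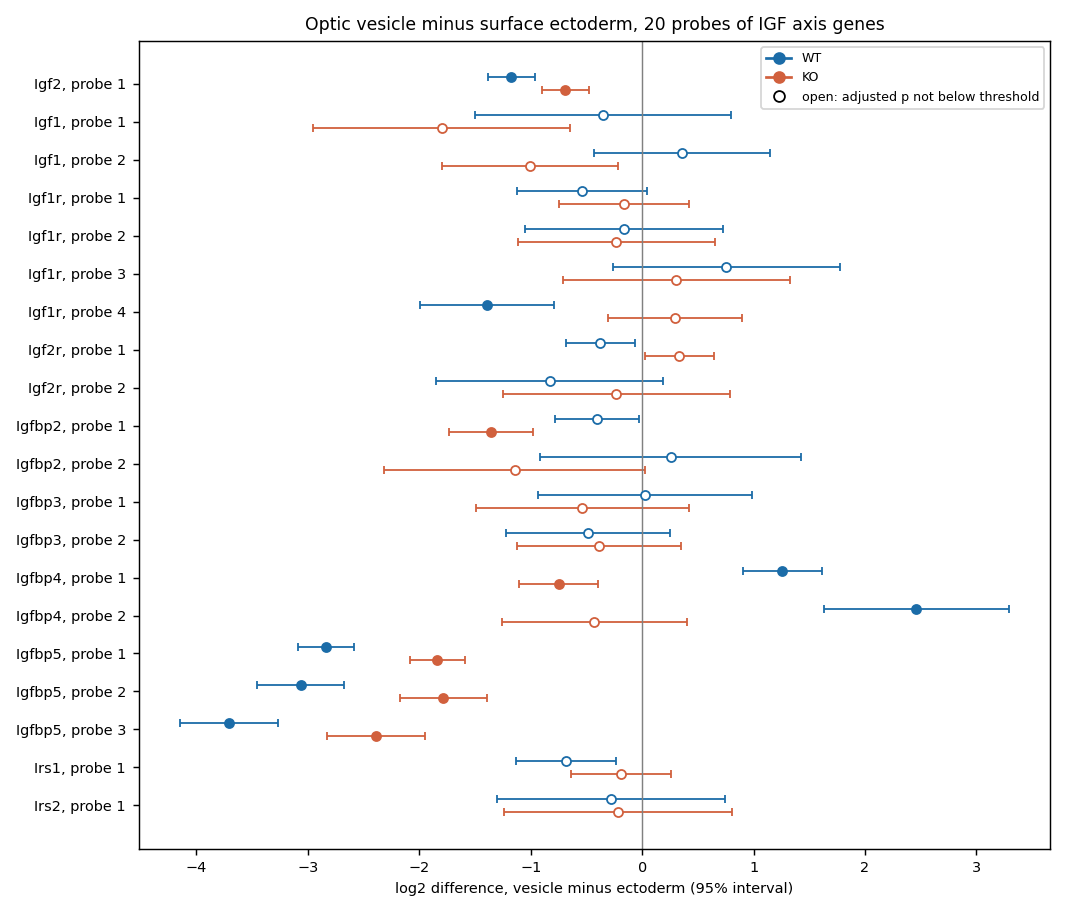
Log2 difference of vesicle minus ectoderm (horizontal axis) with its 95% interval for each of the 20 probes in WT and in KO embryos; filled points passed an adjusted p of 0.05. The Igfbp5 points lie at -2.84 to -3.71 in WT and at -1.78 to -2.39 in KO, all filled, and the Igfbp4 points lie at 1.26 and 2.46 in WT and below 0 in KO.

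Outside these 10 genes, 55 further genes of insulin and IGF signalling were listed by role. Of these, 47 had a probe and 37 had one that passed the filter, and each was read from its brightest such probe. Between KO and WT, 0.681% of all probes passed as higher and 0.488% as lower in the vesicle, and 1.52% and 1.73% in the ectoderm. At such shares a count of 0 among 37 genes says little. None of the 37 passed in KO against WT by limma, in the vesicle (7 at an unadjusted p under 0.05) or the ectoderm (6). Their log2 differences ran from -1.10 to 1.60 with a median of -0.08 in the vesicle, and from -0.52 to 1.73 with a median of 0.05 in the ectoderm. They comprised the insulin receptor gene Insr, 1 further binding protein, 4 genes of binding protein cleavage, 6 receptor adaptors, 16 genes of PI3 kinase, AKT and TOR, 7 FoxO factors and targets, and 2 Igf2 RNA binding proteins. In WT, 3 of the 37 differed between the tissues, 1 as higher in the vesicle and 2 as lower, where 2.53% and 3.22% of all probes passed. With 37 genes this is near those shares, and 0 passed with the lowest-mean probe of each gene. Nothing is read from the count. Grb10, an imprinted adaptor that dampens insulin and IGF receptor signals, was higher in the vesicle, with 11.51, 11.75 and 11.63 against 10.97, 10.96 and 11.04 (0.64, adjusted p = 0.0026). Pik3r1, the regulatory subunit of PI3 kinase, was lower there, with 9.02, 9.07 and 8.94 against 10.73, 10.30 and 10.66 (-1.55, adjusted p = 0.000312). Shc1, an adaptor towards the MAP kinase branch, was lower too, with 10.30, 10.37 and 10.24 against 10.63, 10.88 and 10.87 (-0.49, adjusted p = 0.0211). In KO none of the 37 passed between the tissues by limma (5 at an unadjusted p under 0.05), nor in the interaction (6). Of all probes, 2.43% passed as higher and 2.73% as lower between the KO tissues, and 0.516% and 0.332% in the interaction.

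Marker lists of the tissues and of neighbouring cells were read on the same arrays as summed normalised intensity. Surface ectoderm markers (13 of 14 kept) summed to 587 to 722 in WT vesicle, 1238 to 1423 in KO vesicle, 9565 to 11448 in WT ectoderm and 9675 to 12862 in KO ectoderm. In WT vesicle 9 of the 13 were detected on no array, while in WT ectoderm 11 were detected on all 3. Of the 13, 1 rose in the KO vesicle and 4 in the KO ectoderm, and 0 fell. Neural retina and eye field markers (9 of 11 kept) were all detected on every vesicle array, and 7 of them on every WT ectoderm array. Their sums ran from 7632 to 8678 in WT vesicle, 5016 to 5952 in KO vesicle, 6459 to 7620 in WT ectoderm and 3320 to 4215 in KO ectoderm. Lens placode markers (10 of 11 kept) summed to 3379 to 3583 in WT vesicle, 2693 to 3203 in KO vesicle, 7013 to 8320 in WT ectoderm and 2370 to 2739 in KO ectoderm, where Foxe3, Pitx3 and Sox1 were detected on no array. Of the retina list 3 fell in the KO vesicle, and 3 fell and 1 rose in the KO ectoderm. Of the lens list 2 fell in the KO vesicle and 8 in the KO ectoderm. Pax6 and Six3 are on both lists, so the lists are not exclusive. Pigment epithelium markers (9 of 10 kept) summed to 1681 to 1916, 5653 to 5998, 889 to 1381 and 2393 to 2710 in the same order of groups, and 5 rose in KO in each tissue.

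Markers of cells outside both layers also moved. As above, 0.681% of all probes rose and 0.488% fell in the KO vesicle, and 1.52% and 1.73% in the KO ectoderm. Erythroid markers (6 of 8 kept) summed to 2042 to 2150 in WT vesicle, 4785 to 5090 in KO vesicle, 9858 to 10547 in WT ectoderm and 11167 to 12371 in KO ectoderm, and 4 of the 6 rose in the KO vesicle and 1 in the KO ectoderm. Igf2 and the Igfbp5 probes followed the same order of groups, and so did the periocular mesenchyme sums given below. The surface ectoderm markers did so too by their median sums, at 634, 1248, 10002 and 11357.5. Their ranges in WT and KO ectoderm overlapped. Periocular mesenchyme and neural crest markers (9 of 14 kept) summed to 308 to 425, 854 to 1066, 1932 to 2085 and 3705 to 3811 in that order of groups. Of the 9, 2 rose in the KO vesicle, and 4 rose and 1, Pdgfra, fell in the KO ectoderm. Single genes weighed heavily in these sums. In WT ectoderm Pdgfra averaged 10.23 (7.74 in KO ectoderm), while Twist1, Prrx1 and Col3a1 averaged 5.11, 5.30 and 5.52. In KO vesicle Postn and Alx4 averaged 8.39 and 7.66, against 4.94 and 4.69 in WT vesicle, while Col1a2 and Twist1 averaged lower in KO. Foxc1 was detected on no WT vesicle array and Postn on no KO ectoderm array. Endothelial markers (8 of 10 kept) summed to 289 to 314, 360 to 411, 200 to 294 and 677 to 722, and 4 rose in the KO ectoderm. So did 4 periocular mesenchyme, 4 surface ectoderm and 5 pigment epithelium markers. In WT ectoderm 5 of the 8 endothelial markers, Pecam1, Emcn, Kdr, Sox17 and Esam, were detected on no array. Macrophage markers (5 of 9 kept) summed to 116 to 442, 122 to 171, 214 to 445 and 136 to 268, and 0 passed between KO and WT by limma (1 at an unadjusted p under 0.05 in the vesicle and 2 in the ectoderm). The part of these cell types in the differences of the IGF axis genes was not tested.

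**Figure D5:**
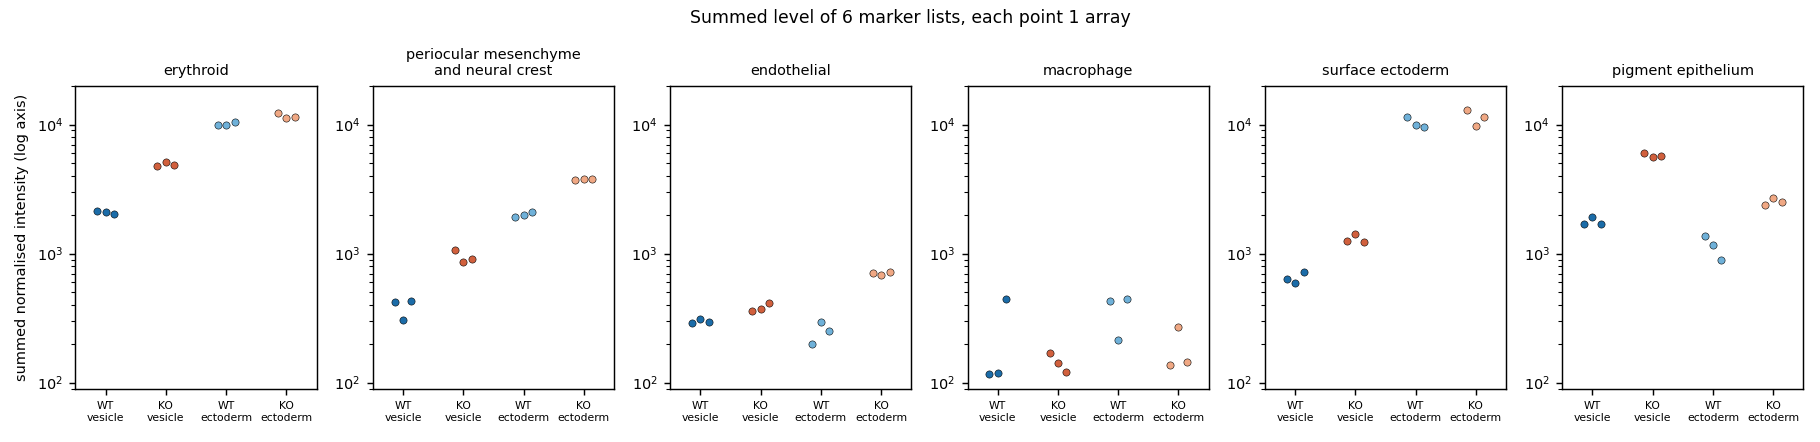
Summed normalised intensity (vertical log axis) of 6 of the 8 marker lists on each array by group. Erythroid sums step up from 2042 to 2150 in WT vesicle to 11167 to 12371 in KO ectoderm, and endothelial sums are highest in KO ectoderm, at 677 to 722.

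For each IGF axis gene that passed between KO and WT, the genes with the most similar profile over the 12 arrays were found among 11914 others by Pearson's correlation, which is a description because the arrays share the 4 groups. The profile of Igf2 was closest to those of Hba-x, an embryonic globin gene (r = 0.993), Krt18, a keratin of simple epithelia (0.991), and Tenm2, a teneurin (0.973). That of Igfbp5 was closest to Hbb-bh1 (0.991) and Hbb-y (0.988), both embryonic globin genes, and to Aldh1a3, a retinoic acid synthesis enzyme (0.988). Hba-x itself averaged 6.55, 8.32, 9.17 and 10.02 in WT vesicle, KO vesicle, WT ectoderm and KO ectoderm.
Irs1 ran closest to Wnt5a, a secreted Wnt ligand (0.934), Robo1, a Slit receptor (0.928), and Rtf1, a transcription elongation factor (0.918). Igf1 ran closest to Masp1, a complement pathway protease (0.939), Plxnd1, a semaphorin receptor of endothelium (0.920), and Ncaph2, a condensin subunit (0.915). Igfbp2 ran closest to Tead4, a transcription factor of the Hippo pathway (0.985), Lrrc15 (0.973) and Cd36, a fatty acid receptor (0.971), each of which averaged under 5 outside KO ectoderm. Igfbp4 ran closest to 1110059E24Rik (0.887), Ndrg2 (0.886) and Otud5 (0.885), and Igf1r by its brightest probe to Aamdc (0.948), Fahd2a (0.878) and Kmt2d (0.857). Igf2r ran closest to Ubl3 (0.942), Ppp1r3c (0.921) and Cklf (0.907).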

How the data were processed

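Illumina bead arrays of 12 samples in 4 groups of 3 were used. Per the file headers, the deposited scanner table gives mean bead intensity for each probe on each array (not background-subtracted or normalised), its bead standard error, the number of beads, and a detection p-value; per the submitters' processing notes it came from GenomeStudio, version not given in the sources used here. The authors' processed intensity matrix is linear, with column medians of 9.397 to 9.419 and values below 0; its background and normalisation options are unstated, and each column ranked probes like its own scanner column. It served as an alternative. Here neqc (limma 3.58.1, R 4.3.3) was applied to the intensities (controls inferred from detection p-values, offset 16, quantile, log2). Probes with detection p below 0.05 on at least 3 of 12 arrays were kept (24978 of 45281). limma (lmFit, eBayes with trend) was fitted to all 12 arrays by group, two-sided, with Benjamini-Hochberg adjustment over all kept probes. Every 95% interval of a difference is from this fit. So is every adjusted p, except those given for an alternative, which was fitted and adjusted anew. Symbols came from the platform annotation (34885 probes with 1 symbol, 18 with several, 10378 with none). The pipeline was tested on simulated data. Slide, processing and left-out arrays were tried as alternatives. Each slide held both genotypes of each tissue. Of each genotype, slide 1 held 1 vesicle array and 2 ectoderm arrays, and slide 2 held 2 vesicle arrays and 1 ectoderm array. Genotype was thus even over the slides, and tissue was not.

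Members and lists were chosen with earlier results of these data known. By rule, all 10 members are described, with values on every array for probes that passed anywhere and for the brightest probe of the others; pathway genes are named where they passed, up to 4 per comparison; and the 3 most similar genes are named for each member that passed between KO and WT. The number of arrays and beads limits the precision.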

Additional observations from a re-analysis of the deposited data

Results flagged for a closer look

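By an interaction term of the limma fit over all probes, the effect of the Bmp4 deletion differed between the tissues for 2 binding protein genes. These were Igfbp4 (2 probes, lower) and Igfbp5 (3 probes, higher), where 0.332% and 0.516% of all probes passed as lower and higher. The genes were chosen with results known, and probes of 1 gene share its RNA, so nothing is read from this count. For Igfbp4 the KO minus WT difference in the vesicle minus that in the ectoderm was -2.01 on the log2 scale by the brighter probe (adjusted p = 0.000891) and -2.89 by the dimmer one (adjusted p = 0.0234). For Igfbp5 it was 1.00 (adjusted p = 0.00979), 1.28 (adjusted p = 0.0307) and 1.32 (adjusted p = 0.0492) from the brightest to the dimmest probe. Of the 12 fits with 1 array left out, the dimmer Igfbp4 probe kept its call in 6. The second and dimmest Igfbp5 probes kept theirs in 3 and 1, while the brighter Igfbp4 and brightest Igfbp5 probes kept theirs in all 12. Igfbp5 rose in the KO vesicle by 3 probes and in the KO ectoderm by 2, and Igfbp4 rose in the KO ectoderm, while its vesicle differences of -0.55 and -1.28 did not pass. Within slides 1 and 2 the interaction of the brighter Igfbp4 probe was -2.18 and -1.67, and that of the brightest Igfbp5 probe 0.79 and 1.20, with no call in either slide.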

How the results depend on the processing

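The 34 member differences that passed were recomputed under the alternatives that apply to each, 622 values in all, and 622 kept their sign. These differences were chosen for passing and the alternatives reuse the same arrays, so the kept signs are no independent check. Of the 34, 21 kept their call in all alternatives run for them other than single slides. Passing member probes were 6 in place of 11 in the ectoderm without a detection filter, with array weights or with only the groups compared, and 7 of 10 with 1 probe per gene. Of all probes, 523 of 45281 passed there without a filter and 482 of 24978 with array weights, in place of 811. With 1 probe per gene 593 of 11924 passed. With 1 probe per gene 3 of 10 passed in the vesicle, 3 of 10 between WT tissues and 2 of 10 in the interaction. Of all 11924 genes, 215, 999 and 168 passed in these comparisons. The interaction had 3 in place of 5 with the authors' matrix, without a filter or with array weights. All probes passing it were 82, 106 and 218 in these settings, in place of 212. Within slide 1, with few arrays, 0 passed in the vesicle, 0 in the ectoderm, 3 between WT tissues, 3 between KO tissues and 0 in the interaction; within slide 2, 0 passed in the ectoderm, 4 between WT tissues and 0 in the interaction. Leaving out 1 array gave 5 to 6 in the vesicle, 5 to 9 in the ectoderm (5 without WT array 1), 7 to 8 between WT tissues, 5 to 7 between KO tissues and 2 to 4 in the interaction (2 without any 1 KO vesicle array).

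Of the other pathway genes, 1 passed in the vesicle with array weights, where 519 of all 24978 probes passed. Between WT tissues 0 passed with the lowest-mean probe or within slide 1, 1 within slide 2, and 2 to 3 without 1 array. Between KO tissues 1 passed without background correction, with offset 50, with detection p below 0.01 or with the lowest-mean probe, and 0 to 1 without 1 array.

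With the replicate block, 2 member probes passed the interaction and 92 of all probes, in place of 5 and 212; arrays with the same number had residual correlations of -0.041 to 0.010, which gives no hint that the numbers pair arrays. With slide as a block, the dimmest Igfbp5 probe alone of the 34 lost its call (interaction, adjusted p = 0.0552, over alternatives up to 0.8). Over all probes the calls ranged without 1 array from 151 to 196 in the vesicle (292 with all), 555 to 739 in the ectoderm (811), and 90 to 197 in the interaction (212). Over the other alternatives they ran from 0 to 519, 15 to 861 and 0 to 241, and between tissues from 61 to 1676 in WT (1438) and 38 to 1340 in KO (1290). The cause of these changes was not tested. Signals near background limit what can be measured by the Igf1 probes, the dimmest Igf1r probe and the dimmer Igfbp3 probe. The other Igf1r probes and the brighter Igfbp3 probe were detected on all 12 arrays.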

Other observations

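Some member differences passed in single alternatives. The brighter Igf1 probe, lower in KO vesicle than KO ectoderm by -1.80 (adjusted p = 0.0733), passed without background correction, with offset 50, with the replicate block and without KO ectoderm array 2 (adjusted p 0.0335 to 0.802 over 18 alternatives). Irs1, at -0.68 between the WT tissues, read -0.91 without WT vesicle array 1 (adjusted p = 0.0197, range over alternatives 0.0197 to 0.981). The interaction of the brighter Igfbp2 probe read -1.13 without WT ectoderm array 1 (adjusted p = 0.0437, range 0.0437 to 0.858). With only the vesicle arrays in the fit, the dimmer Igfbp4 probe passed as lower in KO, at -1.28 (adjusted p = 0.0334, range 0.0334 to 1). With only the ectoderm arrays, the second Igfbp5 probe passed as higher in KO, at 0.55 (adjusted p = 0.037, range 0.037 to 0.356).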
